A study of Mus musculus with 18 samples.

Results

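The genes described here are Nodal and Gdf3, which encode secreted signalling proteins, Tdgf1 (Cripto), which encodes their cofactor on the cell surface, and Lefty1, Lefty2 and Cer1, which encode secreted antagonists. They were selected by gene name, and these 6 genes stand among the 54429 gene names in the table of the FLAG-EED libraries and among the 54352 names it shares with the table of the wildtype cells. RNA-seq libraries came from stem cells of mouse embryos (mESCs) and from embryoid bodies, the floating aggregates in which such cells differentiate. The K19R knock-in cells carried FLAG-tagged EED with arginine in place of a lysine, and the FLAG-WT knock-in cells carried the same tag on EED of wildtype sequence. EED belongs to the core of PRC2, the Polycomb complex that methylates histone H3 at silenced genes, and the title of the series names the role of EED acetylation in PRC2 targeting and in mESC differentiation as its subject. Both knock-in lines were sampled on day 0 as mESCs in leukemia inhibitory factor (LIF) with the MEK and GSK3 inhibitors called 2i, and on days 2, 6 and 10 as embryoid bodies without LIF and 2i. One more group held wildtype mESCs in LIF alone, without the knock-in. Each of the 9 groups held 2 libraries. The number of clones and the relation of the wildtype mESCs to the knock-in cells are not given in the sources used here.

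Nodal, a ligand of the TGF-beta family, binds activin receptors on cells that also carry Tdgf1, and the receptors then phosphorylate Smad2 and Smad3, which enter the nucleus with Smad4 and act on target genes together with the DNA-binding protein Foxh1. Lefty1 and Lefty2 are targets of the same pathway and block Nodal outside the cell, which makes a negative feedback loop, and Cer1 is a further extracellular antagonist. In the mouse embryo Nodal is made in the epiblast and is needed for the primitive streak, while Lefty1 and Cer1 are known for the anterior visceral endoderm.

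Libraries of the FLAG-EED cells held 20158077 to 28917558 counts, and 1 count in them stood for 0.0321 to 0.0584 CPM, the share of a library's counts on the usual CPM scale, with library sizes scaled by the trimmed mean of M-values (TMM). The wildtype mESC libraries held 14190166 and 37375083 counts. Summed levels of 10 naive pluripotency markers (Nanog, Esrrb, Klf2 and others) matched the labels in that they were highest on day 0. Day 0 libraries had 4766 to 4878 CPM in K19R cells and 4802 to 4826 CPM in FLAG-WT cells. Day 10 embryoid bodies had 993 to 1089.6 CPM in K19R and 969 to 1003 CPM in FLAG-WT. On day 6 the sums were lower still, 571 to 624 CPM in K19R and 822 to 841.5 CPM in FLAG-WT. They therefore set day 0 apart and do not order the later days. The close sums on day 10 stand for unlike genes, since 6 of the 10 were higher and 4 lower in K19R, and Esrrb had 81.0 ± 18 CPM in K19R and 3.06 ± 0.17 CPM in FLAG-WT (SD, n = 2). Of the 6 genes, 5 passed the filter on low counts, and Cer1 did not. Whether the 2 libraries of a group come from separate cultures is not stated in the labels, and the p-values therefore cover the spread between these libraries alone, which may be technical.

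K19R embryoid bodies held more mRNA of the ligands, the cofactor and both Lefty genes than FLAG-WT embryoid bodies on day 10, by 5.17-fold for Lefty1, 6.19-fold for Nodal, 20.2-fold for Tdgf1, 31.1-fold for Gdf3 and 46.7-fold for Lefty2. The value of Lefty2 rests on FLAG-WT libraries of 2 and 26 counts, and without replicate 1 of FLAG-WT day 10 the log2 changes of Lefty2 (4.64) and Gdf3 (4.65) were alike. The order of these genes is therefore uncertain. Of the 5 genes tested, 1 was higher in K19R on day 0 (Lefty1), 3 on day 2 (Gdf3, Tdgf1 and Lefty1), 4 on day 6 (all but Lefty1) and 5 on day 10, and none was lower on any of these days, by edgeR's quasi-likelihood test with a Benjamini-Hochberg adjusted p under 0.05. Over all 19092 genes tested, 10.5% passed on day 0 (5.51% as higher and 4.98% as lower), 41.8% on day 2 (20% and 21.8%), 58.5% on day 6 (28.4% and 30.1%) and 58.4% on day 10 (33.2% and 25.2%). The median log2 change of the 5 genes was -0.02 on day 0, 0.30 on day 2, 1.75 on day 6 and 4.34 on day 10, beside medians over all genes of -0.0024, 0.00, 0.02 and 0.13. Scaled by library totals alone, the median over all genes was 0.38 on day 6 and 0.44 on day 10. The split of calls over all genes moved to 8582 higher and 3188 lower on day 6, against 5429 and 5742 with TMM. On day 10 it moved to 9329 higher and 2785 lower, against 6336 and 4806 with TMM. The counts of the 5 genes that passed, and their directions, did not change with that scaling on any of the 4 days.

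**Figure D1:**
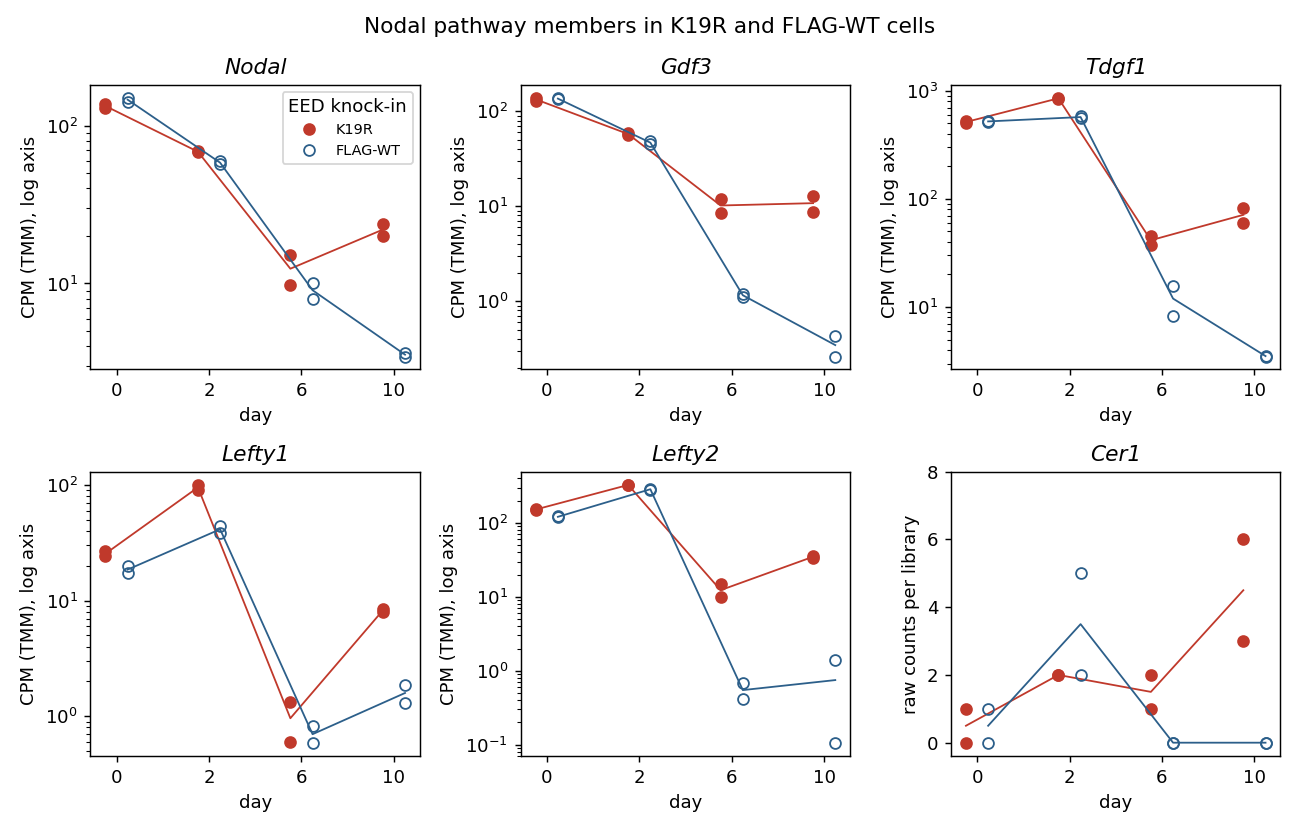
Level of each of the 6 genes by day in K19R (filled) and FLAG-WT (open) libraries, in CPM with TMM scaling on a log axis, and for Cer1 in raw counts per library on a linear axis. Points are libraries and lines join the means of 2 libraries. The lines run close together on day 0 and stand apart on day 10, where all K19R libraries lie above all FLAG-WT libraries for Nodal, Gdf3, Tdgf1, Lefty1, Lefty2 and Cer1.

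Lists of cell type markers differed between the lines as well, and not all in the same direction. Of the 10 naive markers, 9 were lower in K19R on day 2, with a median log2 change of -0.97 and sums of 895 to 942 CPM in K19R and 2137 to 2148 CPM in FLAG-WT. On day 6, 5 were higher and 5 lower (571 to 624 CPM in K19R and 822 to 841.5 CPM in FLAG-WT). On day 10 the median log2 change of the 10 was 1.54. On day 10 the summed level of 4 general pluripotency markers (Pou5f1, Sox2, Sall4 and Utf1) was 397 to 438 CPM in K19R libraries and 135 to 155 CPM in FLAG-WT libraries, and 4 of 4 were higher in K19R. On day 6 the same sum was 651 to 658 CPM in K19R and 238 to 284 CPM in FLAG-WT, again with 4 of 4 higher. Of 6 formative epiblast markers (Fgf5, Otx2, Pou3f1, Dnmt3a, Dnmt3b and Zic2), 6 were higher in K19R on day 2, with sums of 2778 to 2933 CPM in K19R and 1764 to 1827 CPM in FLAG-WT. Of the same 6, 5 were higher and 1 lower on day 6, and 4 were higher on day 10, with sums of 373 to 404 CPM in K19R and 209.5 to 218 CPM in FLAG-WT. Of 11 markers of primitive and visceral endoderm (Gata4, Gata6, Sox7, Sox17, Hnf4a, Dab2, Afp, Ttr, Apoa1, Amn and Cubn), 10 were lower in K19R on day 2 (322 to 394 CPM in K19R and 3875 to 3944 CPM in FLAG-WT) and 10 on day 6 (7276 to 7594 CPM in K19R and 18662 to 19214 CPM in FLAG-WT). On day 10, 3 were higher and 3 lower, with sums of 19470.0 to 19787 CPM in K19R and 30237 to 30629.6 CPM in FLAG-WT. The median log2 change of the 11 on day 10 was 0.18, so the lower sum in K19R does not stand for the list as a whole. No marker of these lists was at 0 counts in every library of a group on days 2, 6 and 10. Their part in the results for the Nodal genes was not tested. In bulk libraries, fewer cells of a type and less RNA per cell cannot be told apart.

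Nodal lies at chr10:61417972-61425338 on the plus strand of GRCm38, with 2095 exonic bases in the authors' annotation. Its level fell along the course in both lines up to day 6. K19R libraries had 136 and 129 CPM on day 0, 67.5 and 69.0 on day 2, 15.1 and 9.72 on day 6, and 23.8 and 20.1 on day 10. FLAG-WT libraries had 149.7 and 142 CPM on day 0, 56.9 and 59.5 on day 2, 10.1 and 7.998 on day 6, and 3.45 and 3.64 on day 10. Both K19R libraries were a little below the FLAG-WT libraries on day 0 and a little above them on day 2, the lines overlapped on day 6, and on day 10 both K19R libraries stood far above both FLAG-WT libraries. Nodal was 6.19-fold higher in K19R on day 10 (log2 change 2.63 ± 0.17 SE, edgeR adjusted p = 1.1e-12). On day 6 the log2 change was 0.43 ± 0.15 (edgeR adjusted p = 0.017), and it passed neither without replicate 1 of K19R day 6 (0.09, adjusted p = 0.65) nor without replicate 2 of FLAG-WT day 6 (0.27, adjusted p = 0.21). Day 0 gave -0.13 ± 0.10 (95% interval -0.33 to 0.07, edgeR adjusted p = 0.47) and day 2 gave 0.23 ± 0.11 (0.02 to 0.44, edgeR adjusted p = 0.086), which passed with no filter (adjusted p = 0.042) and with a fit of the compared groups only (adjusted p = 0.013). The 300 bases around the start of Nodal are shown because its mRNA stood apart between the lines on day 10. They run from 250 bases before the annotated start to 50 bases from it, on GRCm38.p6 at chr10:61417722-61418021 (plus strand, RefSeq):

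Nodal promoter: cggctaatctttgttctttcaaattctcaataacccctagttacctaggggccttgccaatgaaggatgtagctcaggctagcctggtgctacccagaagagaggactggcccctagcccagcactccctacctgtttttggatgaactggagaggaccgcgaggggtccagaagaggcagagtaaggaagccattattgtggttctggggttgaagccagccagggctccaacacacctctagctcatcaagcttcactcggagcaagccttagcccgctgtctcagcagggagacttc

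This window was searched on both strands for the FOXH1 motif TGTNNATT, the SMAD palindrome GTCTAGAC and the shorter SMAD sequence CAGAC. None of them was found in it, and the rest of the gene and its surroundings were not searched. Among the windows of the same length at 32851 annotated starts, 12.2% held TGTNNATT, 0.213% held GTCTAGAC and 49.6% held CAGAC. The palindrome GTCTAGAC holds no CAGAC.

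Gdf3 lies at chr6:122605403-122610087 on the minus strand, with 2423 exonic bases, and encodes a TGF-beta family ligand that signals through the same receptors and is known in pluripotent cells. On day 0 it had 139 and 129 CPM in K19R libraries, against 134 and 139 CPM in FLAG-WT libraries, which overlapped. K19R embryoid bodies had 56.5 and 58.9 CPM on day 2, 11.8 and 8.59 on day 6, and 12.9 and 8.69 on day 10, while FLAG-WT embryoid bodies had 48.4 and 45.3, 1.20 and 1.11, and 0.261 and 0.428 CPM on these days. From day 6 the K19R libraries stayed near 10 CPM, and the FLAG-WT libraries were near or below 1 CPM. Gdf3 was 8.69-fold higher in K19R on day 6 (log2 change 3.12 ± 0.23 SE, edgeR adjusted p = 7.4e-12) and 31.1-fold higher on day 10 (4.96 ± 0.30, edgeR adjusted p = 2.5e-13). The smaller change on day 2 (0.30 ± 0.11, edgeR adjusted p = 0.024) did not pass without replicate 2 of FLAG-WT day 2 (0.25, adjusted p = 0.17) or of K19R day 2 (0.28, adjusted p = 0.10). Day 0 gave -0.02 ± 0.10 (95% interval -0.22 to 0.17, edgeR adjusted p = 0.93).

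Tdgf1, at chr9:110939603-110946158 on the minus strand with 2622 exonic bases, encodes the membrane-anchored cofactor. It had the highest level per length of the 6 genes on day 0, 196 ± 5.7 RPKM (RPKM is CPM per kilobase of exon; SD, n = 2) in K19R and 199 ± 4.4 RPKM in FLAG-WT. K19R libraries had 525 and 504 CPM on day 0, 860.3 and 844 on day 2, 45.1 and 37.7 on day 6, and 82.0 and 60.4 on day 10. FLAG-WT libraries had 529 and 513 CPM on day 0, 564 and 579 on day 2, 15.6 and 8.29 on day 6, and 3.55 and 3.48 on day 10. The lines overlapped on day 0 and were apart on each later day, with K19R above FLAG-WT. Tdgf1 was 1.49-fold higher in K19R on day 2 (log2 change 0.58 ± 0.12 SE, edgeR adjusted p = 0.00038), 3.37-fold on day 6 (1.75 ± 0.16, edgeR adjusted p = 4.7e-10) and 20.2-fold on day 10 (4.34 ± 0.19, edgeR adjusted p = 6.8e-16). On day 0 the change was -0.02 ± 0.12 (95% interval -0.26 to 0.22, edgeR adjusted p = 0.96). In the transcripts of Tdgf1, 8.86% of the windows of 50 bases occur as well in the pseudogene Tdgf1-ps1, which held 2922 counts over the 16 FLAG-EED libraries beside 138695 of Tdgf1, so reads from such stretches are uncertain. The window around the Tdgf1 start, at chr9:110946109-110946408 on the minus strand (GRCm38.p6, RefSeq), is shown with matches to the motifs in capitals:

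Tdgf1 promoter: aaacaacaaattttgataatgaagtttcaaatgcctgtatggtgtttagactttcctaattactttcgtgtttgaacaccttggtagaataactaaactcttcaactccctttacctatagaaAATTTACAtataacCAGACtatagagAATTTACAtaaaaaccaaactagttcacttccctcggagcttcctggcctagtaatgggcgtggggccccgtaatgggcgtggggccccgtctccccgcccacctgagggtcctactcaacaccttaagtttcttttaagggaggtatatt

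The capitals mark AATTTACA, a match to TGTNNATT on the other strand, at positions -127 and -101 from the start, and CAGAC at position -113 between them. These are matches of letters and do not show binding. The Cer1 window (chr4:82885102-82885401, minus strand) held 1 CAGAC and no other match.

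Lefty1 and Lefty2 lie in the same orientation on the plus strand, Lefty2 at chr1:180893108-180899103 with 2611 exonic bases and Lefty1 at chr1:180935022-180938400 with 1758, and 35918 bases separate them. Their coding sequences, 1104 bases each in the GENCODE M21 annotation of GRCm38, are 91.8% identical. Of the transcript windows of 50 bases, 17.9% in Lefty1 and 12% in Lefty2 occur in another gene, in Lefty1 always Lefty2, and of windows of 100 bases 5.85% and 3.86% do. Reads that fit several places were left out of the counts, so the counts of both genes come mainly from the stretches that differ.

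Lefty1 was the only member of the 5 tested that passed on day 0. K19R libraries had 24.1 and 26.8 CPM on day 0, 89.8 and 100.6 on day 2, 1.32 and 0.599 on day 6, and 8.02 and 8.44 on day 10. FLAG-WT libraries had 19.9 and 17.2 CPM on day 0, 44.4 and 38.4 on day 2, 0.816 and 0.584 on day 6, and 1.31 and 1.87 on day 10. Both K19R libraries were above both FLAG-WT libraries on days 0, 2 and 10, and on day 6 the lines overlapped near the bottom of the range. Lefty1 was 2.30-fold higher in K19R on day 2 (log2 change 1.20 ± 0.11 SE, edgeR adjusted p = 1.5e-09) and 5.17-fold higher on day 10 (2.37 ± 0.22, edgeR adjusted p = 7.2e-10). On day 0 it was 1.37-fold higher (0.45 ± 0.12, edgeR adjusted p = 0.017), a call lost without replicate 2 of FLAG-WT day 0 (0.36, adjusted p = 0.22) or of K19R day 0 (0.39, adjusted p = 0.16). That FLAG-WT library also held more of the 11 endoderm markers, 124 CPM in sum beside 30.2 CPM in replicate 1 and 53.2 to 56.1 CPM in K19R day 0. The change on day 6 was 0.39 ± 0.38 (95% interval -0.36 to 1.14, edgeR adjusted p = 0.40).

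Lefty2 was the more abundant of the pair on day 0, with 58.1 ± 1.4 RPKM in K19R and 46.3 ± 0.99 RPKM in FLAG-WT, against 14.5 ± 1.1 and 10.5 ± 1.1 RPKM of Lefty1 (SD, n = 2). K19R libraries had 149 and 154 CPM of Lefty2 on day 0, 330 and 323 on day 2, 14.8 and 9.86 on day 6, and 35.7 and 34.0 on day 10. FLAG-WT libraries had 123 and 119 CPM on day 0, 291 and 279.9 on day 2, 0.687 and 0.409 on day 6, and 0.104 and 1.39 on day 10. The lines did not overlap on any day, and the gap was small through day 2 and wide from day 6. Lefty2 was 21.3-fold higher in K19R on day 6 (log2 change 4.41 ± 0.31 SE, edgeR adjusted p = 4.5e-12) and 46.7-fold higher on day 10 (5.55 ± 0.26, edgeR adjusted p = 1.7e-15). The FLAG-WT libraries of day 10 held 2 and 26 raw counts, and the log2 change was 4.64 without replicate 1 and 8.32 without replicate 2 of that group, past the threshold in each case. Day 0 (0.33 ± 0.12, edgeR adjusted p = 0.076) and day 2 (0.19 ± 0.11, edgeR adjusted p = 0.19) did not pass, while a fit of the compared groups only gave adjusted p = 1.2e-05 and 0.023.

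Cer1, at chr4:82881751-82885148 on the minus strand with 1739 exonic bases, was close to absent from all libraries at this depth. K19R libraries held 1 and 0 counts on day 0, 2 and 2 on day 2, 1 and 2 on day 6, and 6 and 3 on day 10. FLAG-WT libraries held 0 and 1 counts on day 0, 5 and 2 on day 2, and 0 in both libraries on days 6 and 10. Of the wildtype mESC libraries, 1 held a single count and the other held none. With 3 counts per library as the limit for FLAG-WT, the K19R mean of Cer1 on day 10 was 1.16-fold that limit. The K19R libraries themselves held 6 and 3 counts. This ratio leaves out their counting error and is not a lower bound. Tested without the filter on low counts, the day 10 difference had an edgeR adjusted p of 0.084. The other 5 markers of anterior visceral endoderm (Hhex, Lhx1, Otx2, Dkk1 and Foxa2) went in both directions on day 10, where 4 were higher and 1 lower in K19R, with a median log2 change of 1.93. Foxa2, the lower one, had 88.7 ± 2.2 CPM in K19R and 169 ± 0.62 CPM in FLAG-WT. Dkk1, a secreted Wnt antagonist named here after its values were seen, had 22.9 ± 4.0 CPM in K19R and 6.49 ± 1.1 CPM in FLAG-WT (SD, n = 2). The day 10 sum of the 5, to which Foxa2 gave the most, was 161 to 168 CPM in K19R and 183 to 184 CPM in FLAG-WT. On day 2, 1 of the 5 was higher and 4 were lower in K19R (median log2 change -1.66). On day 6, 1 was higher and 2 were lower (median -0.16). Hhex, Lhx1 and Foxa2 also stand among the downstream target genes below, and Otx2 among the formative markers, so the counts of these lists are not separate.

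**Figure D2:**
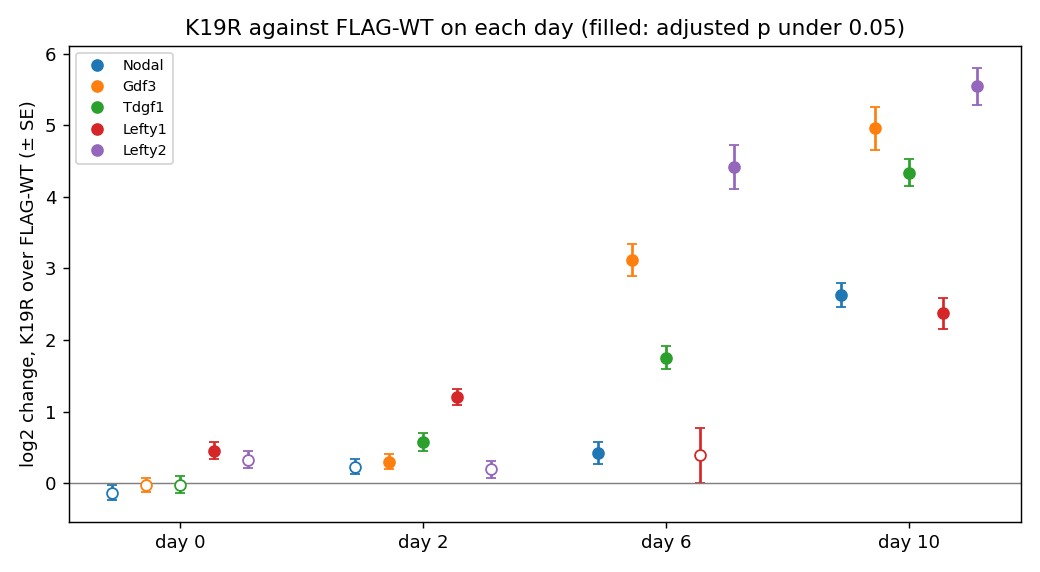
Log2 change of K19R over FLAG-WT (± SE) of the 5 tested genes on each day, from the edgeR fit of the 16 FLAG-EED libraries. Filled points passed an adjusted p of 0.05, and open points did not. The points lie near 0 on day 0 and between 2.37 and 5.55 on day 10.

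Within each line the early course split the ligands from the Lefty genes. Between days 0 and 2, Nodal and Gdf3 fell in both lines and Lefty1 and Lefty2 rose in both, so that 3 of 5 rose and 2 fell in K19R and 2 rose and 2 fell in FLAG-WT. Over all genes, 56.4% passed in K19R (28.5% as higher and 27.9% as lower) and 56.1% in FLAG-WT (28.5% as higher and 27.6% as lower). Nodal fell by 0.96 ± 0.10 on the log2 scale in K19R (edgeR adjusted p = 1.1e-08) and by 1.32 ± 0.11 in FLAG-WT (edgeR adjusted p = 3.7e-11), and Gdf3 fell by 1.22 ± 0.10 in K19R and by 1.54 ± 0.11 in FLAG-WT (edgeR adjusted p = 1.2e-10 and 1.7e-12). Lefty1 rose by 1.91 ± 0.11 in K19R and by 1.16 ± 0.12 in FLAG-WT (edgeR adjusted p = 1.1e-13 and 4.9e-09), and Lefty2 rose by 1.10 ± 0.12 in K19R and by 1.24 ± 0.12 in FLAG-WT (edgeR adjusted p = 7.0e-09 and 1.0e-09). Tdgf1 was the gene that rose in K19R (0.73 ± 0.12, edgeR adjusted p = 1.2e-05) and did not pass in FLAG-WT (0.13 ± 0.12, edgeR adjusted p = 0.37). Tested directly, the change differed between the lines for 2 of 5 genes, with 27.1% of all genes passing (12.7% as higher and 14.4% as lower): Tdgf1, by 0.60 ± 0.17 (edgeR adjusted p = 0.011), and Lefty1, by 0.75 ± 0.16 (edgeR adjusted p = 0.0011). The difference for Tdgf1 did not pass with DESeq2 (0.60, adjusted p = 0.18).

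Between days 2 and 6 all 5 genes fell in both lines, among 66.8% of all genes that passed in K19R (34.7% as higher and 32.1% as lower) and 72.6% in FLAG-WT (35.6% as higher and 37% as lower). Lefty1 fell most in K19R, by 6.65 ± 0.18 on the log2 scale (edgeR adjusted p = 4.7e-21), and the value was -7.30 without replicate 1 of K19R day 6. Lefty2 fell most in FLAG-WT, by 8.96 ± 0.23 (edgeR adjusted p = 7.6e-22), and by 4.74 ± 0.14 in K19R (edgeR adjusted p = 6.4e-20). For Tdgf1 it was -4.36 ± 0.14 in K19R and -5.54 ± 0.16 in FLAG-WT on the log2 scale, and for Gdf3 the log2 change was -2.51 ± 0.12 in K19R and -5.33 ± 0.19 in FLAG-WT. Nodal changed by -2.47 ± 0.12 in K19R and by -2.67 ± 0.13 in FLAG-WT. The K19R change was less negative for 3 of 5 genes, with 44.5% of all genes passing (23.2% as higher and 21.3% as lower): Lefty2 by 4.22 ± 0.35 (edgeR adjusted p = 3.1e-10), Gdf3 by 2.82 ± 0.26 (edgeR adjusted p = 2.2e-09) and Tdgf1 by 1.18 ± 0.20 (edgeR adjusted p = 2.9e-05). For Nodal the difference was 0.20 ± 0.18 (95% interval -0.16 to 0.56, edgeR adjusted p = 0.41), and it was 0.58 (adjusted p = 0.016) with scaling by library totals alone. Lefty1 went the other way, with a difference of -0.82 ± 0.41 (edgeR adjusted p = 0.11), which did not pass. Without replicate 1 of K19R day 6 this difference was -1.46. It ran from -1.46 to -0.32 over 14 alternative settings, was negative in each and passed in 1 of them.

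From day 6 to day 10, Nodal and Tdgf1 rose in K19R and fell in FLAG-WT, while Lefty1 rose in both lines. In K19R, 4 of 5 genes rose, with 58.5% of all genes passing (33.4% as higher and 25.2% as lower): Lefty1 by 3.12 ± 0.22 on the log2 scale (edgeR adjusted p = 7.0e-12), Lefty2 by 1.51 ± 0.15 (edgeR adjusted p = 2.4e-09), Nodal by 0.83 ± 0.13 (edgeR adjusted p = 5.1e-06) and Tdgf1 by 0.78 ± 0.13 (edgeR adjusted p = 1.7e-05). The rise of Lefty1 was 3.77 without replicate 1 of K19R day 6 and 2.63 without replicate 2. Gdf3 gave 0.09 ± 0.14 in K19R (edgeR adjusted p = 0.59). In FLAG-WT, 3 of 5 genes fell and 1 rose, with 44.2% of all genes passing (21.2% as higher and 22.9% as lower): Tdgf1 fell by 1.80 ± 0.23 (edgeR adjusted p = 4.4e-07), Gdf3 by 1.74 ± 0.49 (edgeR adjusted p = 0.0054) and Nodal by 1.37 ± 0.20 (edgeR adjusted p = 2.4e-06), while Lefty1 rose by 1.14 ± 0.36 (edgeR adjusted p = 0.012). The FLAG-WT calls of Gdf3 and Lefty1 rested on few counts, 5 and 8 of Gdf3 on day 10 and 19 and 10 of Lefty1 on day 6. Gdf3 did not pass without replicate 1 of day 10 (-1.43, adjusted p = 0.064), and Lefty1 did not pass without replicate 2 of day 6 (0.94, adjusted p = 0.089) or replicate 2 of day 10 (0.85, adjusted p = 0.15). Lefty2 in FLAG-WT gave 0.38 ± 0.60 (edgeR adjusted p = 0.65). Without single libraries its change ran from -2.40, without replicate 2 of day 10, to 1.28, so its direction is not settled.

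The change from day 6 to day 10 was higher in K19R than in FLAG-WT for 4 of 5 genes, with 39% of all genes passing (24.4% as higher and 14.6% as lower). Tdgf1 differed by 2.59 ± 0.27 (edgeR adjusted p = 1.6e-08), Nodal by 2.21 ± 0.23 (edgeR adjusted p = 3.1e-08), Lefty1 by 1.98 ± 0.47 (edgeR adjusted p = 0.0015) and Gdf3 by 1.84 ± 0.52 (edgeR adjusted p = 0.0057). The Lefty1 difference did not pass without replicate 1 of FLAG-WT day 6 (1.70, adjusted p = 0.061) and was 2.63 without replicate 1 of K19R day 6, and that of Gdf3 did not pass without replicate 1 of FLAG-WT day 10 (1.53, adjusted p = 0.052). For Lefty2 the difference was 1.13 ± 0.64 (edgeR adjusted p = 0.17), and without replicate 2 of FLAG-WT day 10 it was 3.91 (adjusted p = 0.00058). The steps of 1 line share their middle day, and each difference between lines shares libraries with the comparisons above.

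Wildtype mESCs in LIF alone were set against FLAG-WT mESCs in LIF and 2i, a comparison in which the medium, the knock-in and the separate count table cannot be told apart. All 5 genes passed, in a fit of all 18 libraries where 64.9% of 19296 genes passed (32.4% as higher and 32.5% as lower), and they went in both directions. The antagonist Lefty1 had 141 and 132 CPM in wildtype mESCs, against 20.1 and 17.4 CPM in FLAG-WT day 0, a 7.27-fold higher level (log2 change 2.86 ± 0.11 SE, edgeR adjusted p = 2.1e-18). The cofactor Tdgf1 had 1128 and 1117 CPM in wildtype mESCs, against 535 and 518 CPM in FLAG-WT (1.09 ± 0.12, edgeR adjusted p = 6.1e-09), and Lefty2 had 172 and 178 CPM, against 124 and 120.3 CPM (0.52 ± 0.11, edgeR adjusted p = 0.00024). Both ligands were lower in wildtype mESCs. Nodal had 37.6 and 37.8 CPM there, against 151 and 143 CPM in FLAG-WT (-1.97 ± 0.11, edgeR adjusted p = 3.4e-15). Gdf3 had 54.3 and 53.4 CPM in wildtype mESCs, against 136 and 140.02 CPM in FLAG-WT (-1.36 ± 0.10, edgeR adjusted p = 3.2e-12). No wildtype library overlapped a FLAG-WT library for any of these 5 genes. Beside them, 9 of 10 naive markers were lower in wildtype mESCs (2309 to 2322 CPM in sum, against 4854 to 4875 CPM in FLAG-WT) and 4 of 6 formative markers were higher with 1 lower (741 to 747 CPM in sum, against 264 to 268 CPM in FLAG-WT), whose part in the result was not tested.

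**Figure D3:**
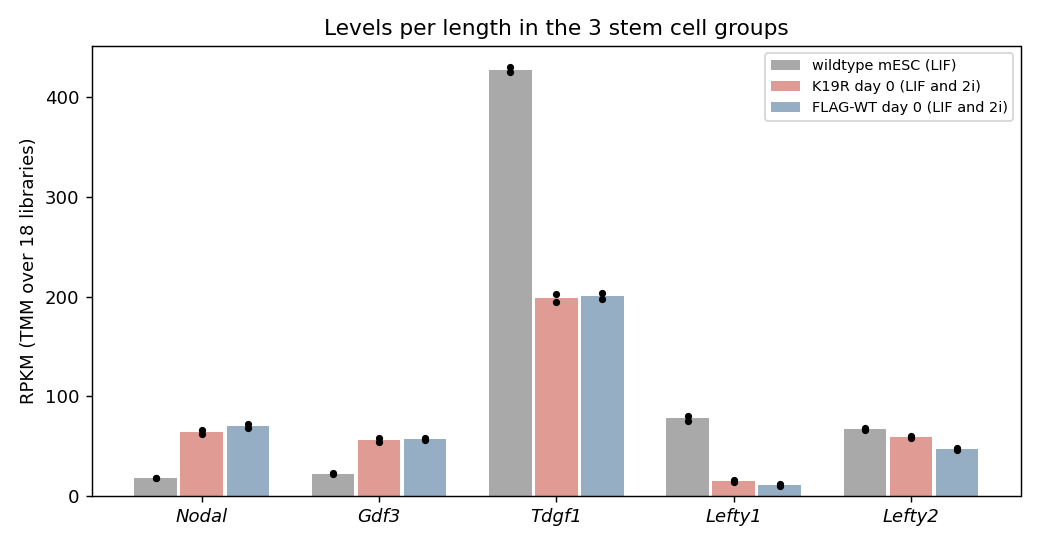
Level per length (RPKM, TMM scaling over 18 libraries) of the 5 genes in the 3 groups of undifferentiated cells: wildtype mESCs in LIF, K19R day 0 and FLAG-WT day 0 in LIF and 2i. Bars are means of 2 libraries and points are the libraries. Tdgf1 stood highest in all 3 groups, and the wildtype bars of Nodal and Gdf3 are the lowest of their sets while those of Tdgf1, Lefty1 and Lefty2 are the highest.

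Ranked over all 9 groups on the scale of the 18 libraries, Nodal and Gdf3 were highest in day 0 cells of the knock-in lines, Tdgf1 and Lefty1 in wildtype mESCs and Lefty2 in K19R day 2 embryoid bodies. FLAG-WT day 10 was lowest for Nodal, Gdf3 and Tdgf1, and FLAG-WT day 6 was lowest for Lefty1 and Lefty2. Neighbours in the order whose libraries overlapped were K19R day 6 and FLAG-WT day 6 for Nodal, K19R day 0 and FLAG-WT day 0 for Gdf3 and for Tdgf1, K19R day 10 and K19R day 6 for Gdf3, and FLAG-WT day 10 and FLAG-WT day 6 for Lefty2. Lefty1 overlapped between FLAG-WT day 10 and K19R day 6 and between K19R day 6 and FLAG-WT day 6.

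Across the 16 FLAG-EED libraries the log2 CPM of the members correlated with each other at a Pearson r of 0.80 (Gdf3 and Lefty1) to 0.97 (Nodal and Gdf3), a description over libraries that share groups, days and scaling. The genes whose profiles were most like Nodal were Accsl (r = 0.993), H2-M5 (0.990) and Tnfrsf8 (0.990). For Gdf3 they included Plekhg1 and Fgf4 (each 0.992), and for Tdgf1 they were Nexmif (0.997), Nudt19 (0.994) and Zfp981 (0.993). Lefty1 was most like Zfp638 (0.980), Nup214 (0.977) and Nif3l1 (0.975), and Lefty2 most like Etv1 (0.986), Gm6658 (0.983) and Swsap1 (0.981). Fgf4 encodes a growth factor known in pluripotent cells, and Etv1 encodes an ETS transcription factor.

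The rest of the listed pathway genes went in both directions, as genes over the whole table did. Of 38 listed genes, 36 passed the filter, and in K19R against FLAG-WT 2 were higher and 5 lower on day 0, 7 and 16 on day 2, 12 and 13 on day 6, and 15 and 12 on day 10. Over all genes, 5.51% were higher and 4.98% lower on day 0, and 20% and 21.8% on day 2. The shares were 28.4% and 30.1% on day 6, and 33.2% and 25.2% on day 10. The counts of each list below stand beside these same shares. The median log2 change of the 36 was -0.07, -0.23, -0.05 and 0.24 on these days, beside -0.0024, 0, 0.02 and 0.13 over all genes. Scaled by library totals alone, 17 were higher and 5 lower on day 6 and 21 were higher and 6 lower on day 10, with no gene called in opposite directions by both scalings. Gdf1 and Acvr1c, which encode a further ligand and a type I receptor, did not pass the filter, and Gdf1 was at 0 counts in all 16 FLAG-EED libraries.

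**Figure D4:**
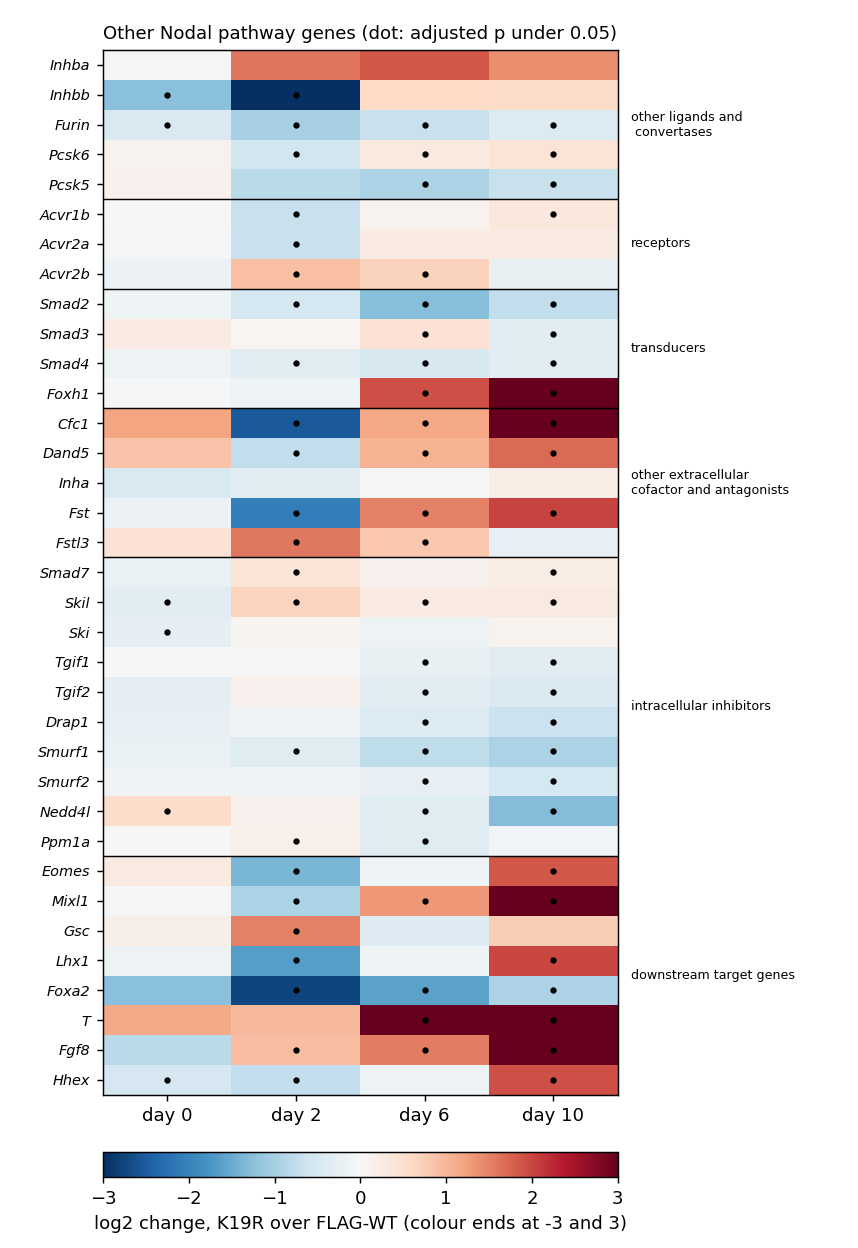
Log2 change of K19R over FLAG-WT on each day for 35 tested genes of the pathway lists, grouped by role, with colour ending at -3 and 3. Dots mark an adjusted p under 0.05 in the edgeR fit. The column of day 10 shows the downstream targets and the extracellular antagonists mostly above 0, where 6 of the 8 targets drawn and 3 of 5 cofactors and antagonists were higher.

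Among the other ligands and the convertases that cleave ligand precursors, 5 were tested, of which 0 were higher and 2 lower on day 0, 0 and 3 on day 2, 1 and 2 on day 6, and 1 and 2 on day 10. Inhbb, a subunit of activin B, had 9.17 to 11.95 CPM in K19R day 0 and 25.1 to 25.5 CPM in FLAG-WT day 0 (log2 change -1.25 ± 0.16, edgeR adjusted p = 9.7e-06). On day 2 Inhbb had 0.889 ± 0.11 CPM in K19R and 9.01 ± 0.37 CPM in FLAG-WT (SD, n = 2; log2 change -3.33 ± 0.24, edgeR adjusted p = 1.9e-11). Furin, a proprotein convertase that cleaves the Nodal precursor, was lower in K19R on all 4 days, by -0.45, -0.998, -0.67 and -0.41 on the log2 scale from day 0 to day 10 (edgeR adjusted p = 5.8e-06 or less on days 2, 6 and 10 and 0.00029 on day 0). The day 10 change of Furin did not pass when scaled by library totals alone (-0.11, adjusted p = 0.14). Pcsk6, also a Nodal convertase, was lower on day 2 (-0.58) and higher on days 6 (0.30) and 10 (0.41), and Pcsk5, of the same family, was lower on days 6 (-0.94) and 10 (-0.67), calls of Pcsk5 that library totals alone did not give (adjusted p = 0.063 and 0.19).

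Of the 3 receptors tested, none passed on day 0. On day 2 Acvr2b was higher in K19R (log2 change 0.90 ± 0.11, edgeR adjusted p = 1.7e-07), and Acvr2a (-0.67 ± 0.12, edgeR adjusted p = 3.5e-05) and Acvr1b (-0.67 ± 0.09, edgeR adjusted p = 1.3e-06) were lower. These are type II and type I activin receptors. On day 6 Acvr2b was again higher (0.68), and on day 10 Acvr1b was (0.33). With library totals alone, Acvr1b (0.47) and Acvr2a (0.61) were called higher on day 6 too (edgeR adjusted p = 8.0e-05 and 9.9e-05). The same scaling called Acvr2a higher on day 10 (0.55, edgeR adjusted p = 0.00028).

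Among the 4 transducers, Foxh1 was higher and Smad2 lower in K19R on days 6 and 10. Foxh1, the DNA-binding partner of Smad2, had 38.1 to 43.3 CPM in K19R day 6 and 10.0 to 11.3 CPM in FLAG-WT day 6, and 12.9 to 14.9 CPM in K19R day 10 and 0.321 to 0.418 CPM in FLAG-WT day 10. Its log2 change was 1.92 ± 0.10 on day 6 and 5.21 ± 0.21 on day 10 (edgeR adjusted p = 1.0e-14 and 1.4e-16), and Foxh1 did not pass on days 0 and 2. Smad2 was lower in K19R on day 2 (-0.53 ± 0.07), day 6 (-1.27 ± 0.07) and day 10 (-0.74 ± 0.07), with 50.2 ± 0.22 CPM in K19R and 121 ± 0.96 CPM in FLAG-WT on day 6 (SD, n = 2). Smad4, the shared partner of receptor-activated Smads, was lower by 0.33 on day 2, 0.48 on day 6 and 0.33 on day 10, and its calls on days 6 and 10 were not given by library totals alone (adjusted p = 0.12 and 0.74). In all, 0 of 4 transducers passed on day 0, 2 were lower on day 2, 2 were higher and 2 lower on day 6, and 1 was higher and 3 lower on day 10. With library totals alone, 2 were higher and 1 lower on day 6, and 1 was higher and 1 lower on day 10.

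Of 5 other extracellular cofactors and antagonists, none passed on day 0, 1 was higher and 3 lower on day 2, 4 were higher on day 6 and 3 on day 10. Fst encodes follistatin, which binds activins. It had 7.08 ± 0.25 CPM in K19R and 29.8 ± 0.39 CPM in FLAG-WT on day 2, and 37.8 ± 6.1 CPM in K19R and 9.29 ± 1.3 CPM in FLAG-WT on day 10 (SD, n = 2). The log2 change of Fst was -2.07 ± 0.13 on day 2, 1.505 ± 0.20 on day 6 and 2.02 ± 0.13 on day 10 (edgeR adjusted p = 6.9e-13, 3.2e-07 and 8.8e-13). Cfc1, a cofactor of the same family as Tdgf1, had 7.04 to 7.86 CPM in K19R and 0.104 to 0.214 CPM in FLAG-WT on day 10 (5.51 ± 0.38, edgeR adjusted p = 3.8e-12), and was also higher on day 6 (1.16). On day 2 Cfc1 had 3 counts in K19R and 16 in FLAG-WT over both libraries, a ratio of 0.161 (95% counting interval 0.0301 to 0.564, edgeR adjusted p = 0.0060). Dand5, an antagonist related to Cer1, was higher on days 6 (1.04) and 10 (1.69), and Fstl3, a follistatin-like protein, was higher on day 2 (1.58).

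Intracellular inhibitors went in both directions. Of 10 tested, 1 was higher and 2 lower on day 0, 3 and 1 on day 2, 1 and 7 on day 6, and 2 and 6 on day 10, and with library totals alone 3 were higher and 1 lower on day 6 and 4 and 4 on day 10. On day 0 Nedd4l, a ubiquitin ligase, was higher (log2 change 0.54 ± 0.07, edgeR adjusted p = 1.6e-05), and Skil (-0.32) and Ski (-0.26), repressors of Smad activity, were lower. Skil (0.66) and Smad7 (0.38), an inhibitory Smad, were higher on day 2, when Smurf1, a further ubiquitin ligase, was lower (-0.37). Smurf1 was lower on day 6 as well (-0.76 ± 0.09, edgeR adjusted p = 3.9e-08) and on day 10 (-0.95 ± 0.08, edgeR adjusted p = 4.9e-10). Drap1 (-0.41 on day 6 and -0.64 on day 10), Ppm1a (-0.37 on day 6) and Nedd4l (-1.31 ± 0.07 on day 10, edgeR adjusted p = 7.9e-14) were lower, and library totals alone did not give the day 6 calls of Drap1 (adjusted p = 0.60) and Ppm1a (adjusted p = 0.86). Drap1 encodes a transcriptional corepressor and Ppm1a a protein phosphatase.

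Downstream target genes differed with the day. Of 9 tested, 1 was higher and 1 lower on day 0, 2 and 5 on day 2, 3 and 2 on day 6, and 7 and 1 on day 10. On day 0 Hhex was lower in K19R (-0.51 ± 0.12, edgeR adjusted p = 0.0073). On day 2 Foxa2, an endoderm regulator, had 2.44 ± 0.54 CPM in K19R and 16.5 ± 0.62 CPM in FLAG-WT (SD, n = 2; log2 change -2.76 ± 0.15, edgeR adjusted p = 4.6e-14), and it was also lower on day 6 (-1.61 ± 0.10, edgeR adjusted p = 1.5e-13). Lhx1, a LIM homeobox gene, was lower on day 2 (-1.66 ± 0.15), and Gsc, a homeobox gene of the organizer, was higher (1.52 ± 0.55, edgeR adjusted p = 0.028). On day 10 the 3 largest changes among the targets were of streak genes. T (brachyury) held 235 counts in K19R and 0 in FLAG-WT (edgeR adjusted p = 1.5e-10). Its K19R mean was 30.4-fold the limit of 3 counts per library for FLAG-WT, which leaves out the counting error of the K19R counts. On day 6 T held 42 counts in K19R and 1 in FLAG-WT, a ratio of 31.8 (95% counting interval 5.41 to 1287, edgeR adjusted p = 2.9e-05). Fgf8, a growth factor of the streak, held 267 counts in K19R and 1 in FLAG-WT on day 10, a ratio of 208 (95% counting interval 37.0 to 8232, edgeR adjusted p = 1.0e-11), and its day 6 change was 1.53 ± 0.52 (edgeR adjusted p = 0.014). Mixl1, a homeobox gene of the streak, had 2.71 to 3.03 CPM in K19R and 0.107 to 0.157 CPM in FLAG-WT on day 10 (4.39 ± 0.47, edgeR adjusted p = 1.0e-08). T, Mixl1, Eomes and Gsc also stand among the 7 primitive streak markers, whose summed level on day 10 was 42.8 to 44.5 CPM in K19R and 7.60 to 9.56 CPM in FLAG-WT, with T the marker at 0 counts in both FLAG-WT libraries. On day 2 this sum went the other way, with 16.7 to 17.7 CPM in K19R and 35.2 to 37.5 CPM in FLAG-WT. Of the streak markers tested, 2 were higher and 2 lower in K19R on day 2. On day 6 the sum was 27.8 to 28.9 CPM in K19R and 18.6 to 23.5 CPM in FLAG-WT.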

How the data were processed

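Deposited values are raw counts per gene name, unscaled. Per the file headers, the authors assigned read pairs to GENCODE vM19 exons on GRCm38 with featureCounts (1.6.3 in the table of the FLAG-EED cells, 1.6.4 in that of wildtype mESCs), required both mates to map, dropped chimeric pairs and set no strand option. Upstream tools in the submitters' processing notes are STAR 2.7.0c, Trim Galore 0.6.0, FastQC 0.11.7 and bcl2fastq 2.17. Total RNA was used for the libraries, per the labels' protocols.

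Genes were kept with filterByExpr by group (minimum count 10, total 15), scaled by TMM and fitted with edgeR 4.0.16 in R 4.3.3 (glmQLFit, 1 coefficient per group, glmQLFTest, two-sided): the 16 FLAG-EED libraries in 1 fit of 19092 genes with 8 residual degrees of freedom, and all 18 in a second of 19296 genes with 9. P was adjusted by Benjamini-Hochberg over all genes of a fit for each of 14 comparisons, with a threshold of 0.05. The SE is the absolute log2 change over the square root of F. Levels are CPM with TMM factors, or RPKM where genes are compared. Alternatives were RLE factors, library totals only, no filter, DESeq2 1.42.0, a fit of the compared groups only, a replicate block and leaving out each library. Replicates of a group differed beyond sampling noise (chi-square per degree of freedom 2.28 to 11.2). Each library was treated as 1 sample, though this spread does not show that replicates are separate cultures.

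The 6 genes, the lists and the tests were chosen with earlier results of these data known. Named genes are the 6, the 3 largest changes past the threshold per pathway list and day, and for each tested member the 3 genes of highest Pearson r over log2 CPM (prior count 2). RefSeq windows of GRCm38.p6 were given for 3 of the 6 genes. Those of Gdf3, Lefty1 and Lefty2 were not used here. Some items that the rule for named genes gives are not reported here.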

Additional observations from a re-analysis of the deposited data

Results flagged for a closer look

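The following changes between neighbouring days differed between the K19R and FLAG-WT lines when the difference itself was tested in the edgeR fit, given as the K19R change minus the FLAG-WT change on the log2 scale. From day 0 to day 2 these were Lefty1 (0.75) and Tdgf1 (0.60). From day 2 to day 6 they were Lefty2 (4.22), Gdf3 (2.82) and Tdgf1 (1.18). From day 6 to day 10 they were Tdgf1 (2.59), Nodal (2.21), Lefty1 (1.98) and Gdf3 (1.84). Each was positive, that is, K19R embryoid bodies gained more or lost less of these mRNAs than FLAG-WT embryoid bodies. With 2 libraries per group, no library was tested for standing apart from its group.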

How the results depend on the processing

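Most results held. Over the 14 comparisons and 5 tested genes, 406 of the values under other settings and 316 of those without a library kept their direction and their side of the threshold. The number of the 5 genes that passed at day 0 (1) was 2 with no filter and 2 with a fit of the compared groups only, and 0 to 1 without single libraries. At day 2 it was 4 with no filter and 5 with a fit of the compared groups only, instead of 3, and 2 to 3 without single libraries (2 without replicate 2 of either line). For the difference in the change from day 0 to day 2 it was 1 with DESeq2, 3 with no filter and 4 with a fit of the compared groups only, instead of 2. Directions turned for Tdgf1 at day 0 with RLE factors (0.0012) and DESeq2 (0.00059), where no test passed. Without single libraries, values ran from -0.050 to 0.016 for Tdgf1 at day 0, from -0.078 to 0.031 for Gdf3 at day 0, from -0.25 to 0.88 for Lefty1 at day 6, from -0.21 to 0.34 for Gdf3 in K19R day 10 against day 6, from -2.40 to 1.28 for Lefty2 in FLAG-WT day 10 against day 6, and from -0.14 to 0.49 for the Nodal difference in the change from day 2 to day 6. The cause was not tested.

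Over all genes, 2003 passed at day 0, 4014 with a fit of the compared groups only, and 845 to 955 without single libraries, where the lone library is assumed to vary like the others. With library totals alone, the split of higher and lower calls in FLAG-WT day 6 against day 2 was 4919 and 9282, instead of 6799 and 7056, and for the difference in the change from day 2 to day 6 it was 7790 and 1857, instead of 4428 and 4075. Scaling of the 38 pathway genes was examined after the data were seen. Same-numbered replicates did not deviate together over all genes of the fit (correlations from -0.030 to 0.048). Counting noise enters these correlations, and a pairing that touches few genes would not show in them. With the replicate block, 1, 3, 4 and 5 of the 5 genes passed at days 0, 2, 6 and 10, as without it. Below about 20 counts per library, as for Lefty2, Gdf3 and Lefty1 in late FLAG-WT embryoid bodies, depth limits the folds.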
